A study of Mus musculus with 4 samples.

Results

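The Il1a-Il1b neighbourhood is the stretch of mouse chromosome 2 from 129053157 to 129253157 (mm9), which takes in 100 kb on either side of the middle of the Il1a contact profile. Its positions are set by coordinate. Of the 2001 positions of the profile, spaced 1000 bp apart, the neighbourhood has 199 that hold a value in 10 kb windows and 2 that do not, in each of 2 circular chromosome conformation capture (4C-seq) libraries. In 4C-seq, DNA that was close to 1 chosen fragment, the viewpoint, in fixed nuclei is ligated to it, amplified by inverse PCR and sequenced. The series was analysed here in 4 such libraries, 1 per group, and asks whether macrophage enhancers already marked in embryonic stem cells touch their promoters.

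The first library is from mouse embryonic stem cells (ESC) of the line 46c, grown without feeders in serum and LIF, with no KLA named in its labels. The second is from peritoneal macrophages of female C57BL/6J mice aged 6 to 8 weeks, collected 3 to 4 days after thioglycollate injection, cultured overnight and treated with KLA for 1 h. KLA is the usual abbreviation of Kdo2-lipid A, a bacterial agonist of Toll-like receptor 4. Both were fixed in 1% formaldehyde and cut with HindII and then DpnII. No macrophage library without KLA was analysed here, so cell type and treatment cannot be told apart, and whether macrophages of several mice were pooled was not given in the sources used here. Each group had 1 library, read depth is unknown, and 4C-seq holds no expression values against which the labelled cell types could be checked. Every difference below therefore compares 2 libraries and carries no replicate error and no test.

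Il1a and Il1b encode interleukin 1 alpha and interleukin 1 beta, cytokines of one family that signal through the same receptor and start local inflammation and fever. Interleukin 1 beta is made as a precursor that inflammasomes cut, while the precursor of interleukin 1 alpha is already active and can act as an alarm signal from damaged cells. Both genes are classic targets of Toll-like receptor and NF-κB signalling in macrophages, and a distal enhancer reaches such a promoter by looping of the chromatin between them. In the RefSeq annotation of GRCm38.p6 the protein-coding genes run in the order Slc20a1 (a phosphate transporter), Ckap2l (a protein of the mitotic spindle), Il1a, Il1b, F830045P16Rik and Sirpa (a myeloid receptor that restrains phagocytosis). The antisense transcript Il1bos overlaps Il1b, and Gm14023 overlaps Il1a. That annotation is of another build than the profiles, so no position below is assigned to a gene, promoter or enhancer.

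A contact can be read only where the enzymes cut, so the letters of both promoters are shown for the enzyme sites they hold. They are the 250 bases before the start that the promoter table uses for each gene (another transcript model of each gene begins a little further upstream), on the minus strand of GRCm38.p6 from RefSeq, at chr2:129309973-129310222 for Il1a and chr2:129371140-129371389 for Il1b. Capitals mark the sites of DpnII (GATC), HindII (spelled as GTCAAC or as GTCGAC, and also as GTTAAC or as GTTGAC) and HindIII (AAGCTT, searched because its name is close to HindII).
Il1a promoter: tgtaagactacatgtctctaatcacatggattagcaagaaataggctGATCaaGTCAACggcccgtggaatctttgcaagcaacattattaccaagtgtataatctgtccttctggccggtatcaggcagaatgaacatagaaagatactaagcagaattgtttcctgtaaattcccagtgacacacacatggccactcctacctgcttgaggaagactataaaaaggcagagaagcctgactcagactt
Il1b promoter: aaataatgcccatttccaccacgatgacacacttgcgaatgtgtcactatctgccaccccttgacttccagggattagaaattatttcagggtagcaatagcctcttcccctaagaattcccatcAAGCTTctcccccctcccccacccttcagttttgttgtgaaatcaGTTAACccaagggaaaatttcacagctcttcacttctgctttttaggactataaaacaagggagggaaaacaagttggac
The Il1a promoter has a DpnII site 203 bases and a HindII site 197 bases before the start. The Il1b promoter has a HindII site 80 bases before the start and a HindIII site further upstream. In the 50 bases after the start there was a HindII site 22 bases into Il1a and a DpnII site 42 bases into Il1b, so each 300-base window held both enzymes' sites. Of 32851 RefSeq promoter windows of that length, 48% held a DpnII site, 11% a HindII site and 7.45% a HindIII site, on either strand. The NF-κB-type motif, searched on both strands as a fixed pattern, was in neither window and in 0.411% of all of them. Variants of that pattern were not searched. Its absence therefore does not show that either promoter lacks NF-κB sites, which was not tested.

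Contact is given throughout as the deposited smoothed signal divided by that library's own median 500 to 900 kb from the middle, the far level, so 1 means no more contact than far away. In 10 kb windows, the 21 positions within 10 kb of the middle had a median contact of 2.03 in ESC, with a highest value of 2.56, and of 2.43 in macrophages, with a highest value of 2.98. At 10 to 25 kb the medians were 1.22 in ESC and 1.63 in macrophages, and at 50 to 100 kb they were 1.11 and 1.16. At 25 to 50 kb the lower side had 1.17 in ESC and 1.19 in macrophages, and the higher side 1.31 and 1.35. Contact did not fall evenly with distance, since the highest 10 kb values, 4.00 in ESC and 3.74 in macrophages, lay 13 and 12 kb above the middle. Contact of at least 2 times the far level was found at 22 of 199 positions in ESC, against 1.11% of the whole profile, and at 21 in macrophages, against 1.06%. These were all such positions of the profiles: 22 of 22 in ESC and 21 of 21 in macrophages. They lay from 6 kb below to 20 kb above the middle in ESC and from 8 kb below to 17 kb above it in macrophages. The 17 that the libraries had in common were 77.3% of those in ESC and 81% of those in macrophages. The Tnfaip3 viewpoint of the same series, treated alike, had 1.73 within 10 kb of its middle in ESC and 1.51 in the macrophage-like line Raw 264.7, labelled as given KLA, and the difference between viewpoints was not tested.

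**Figure D1:**
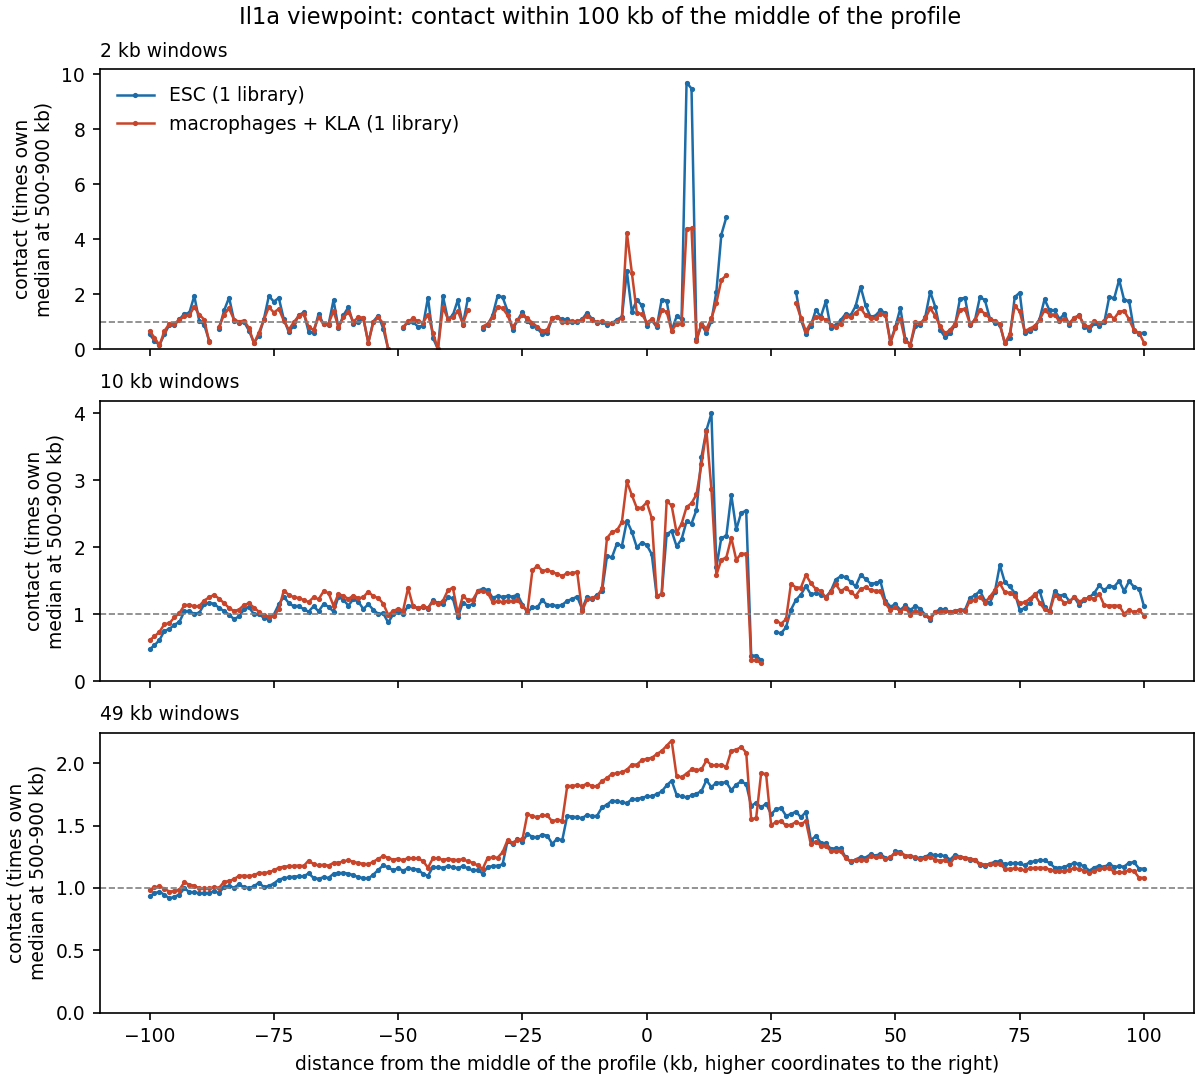
Contact (times the library's own median 500 to 900 kb away, linear axis from 0) against distance from the profile's middle in 2, 10 and 49 kb windows, 1 line per library, with gaps where a window is at 0. In 2 kb windows contact stood out at a few positions between 4 kb below and 16 kb above the middle, and in wider windows the profiles had a broad rise.

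Contact near the middle was strongest at a few narrow places. In 2 kb windows, the narrowest deposited, the median within 10 kb of the middle was 1.10 in ESC and 1.02 in macrophages, below the 1.18 and 1.13 at 25 to 50 kb. The mean there was 2.03 in ESC and 1.58 in macrophages. The highest windows were next to each other, at 129161157 and 129162157, 8 and 9 kb above the middle. ESC had 9.70 and 9.48 times the far level at these positions, and macrophages had 4.40 at both. The next position upwards, 129163157, had 0.377 in ESC and 0.308 in macrophages, so both libraries went from above 4 times the far level to below it between neighbouring positions. A second pair of windows at 129168157 and 129169157, 15 and 16 kb above the middle, had 4.17 and 4.80 in ESC and 2.53 and 2.70 in macrophages. On the other side, 129149157 and 129150157, 4 and 3 kb below the middle, had 2.84 and 1.37 in ESC and 4.24 and 2.79 in macrophages. These 3 pairs were the places of strongest contact, with more in ESC at the upper pairs and more in macrophages at the lower pair on this scale. The highest 2 kb window of each library is deposited as 1, and both libraries are close to 1 at 129161157 and 129162157. The ratio there thus reflects the far medians before scaling, 0.103 in ESC and 0.227 in macrophages. A factor that sets the highest window to 1 cancels when a library is divided by its own far level. The values at this pair therefore give the height of each library's peak over its far level. Over all widths macrophages were the higher library at 129161157 in 41 of 48, but by at least 25% in 0. ESC was at least 25% higher in 6. Each library's subtracted offset, a constant of the deposited values described further on, was also added back. This draws values above the far level towards 1, and more so in macrophages, whose offset is larger against the far level. ESC was therefore bound to stay higher at the 4 upper windows (log2 ratios of macrophages over ESC from -1.83 to -1.17), and no conclusion is drawn from that. The same pull towards ESC acts at the lower pair. At 129149157 the direction turned, with 2.37 in ESC and 2.04 in macrophages, and at 129150157 macrophages stayed higher with 1.58 against 1.27.

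The middle of the profile itself was not such a place. In 2 kb windows it had 0.860 in ESC and 0.978 in macrophages, and in 10 kb windows, which take in the pair 3 and 4 kb away, 2.03 and 2.67. The position of the viewpoint was not given in the sources used here.

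Most 2 kb windows carried a pair of values that occurred again elsewhere. At 57.4% of the 183 positions with a value, the central value and its upper bound in both libraries recurred, equal to 9 decimals, more than 5 kb away in the same profile. The share over the whole profile was 69.5%. The commonest pair, 1.94 in ESC and 1.54 in macrophages, occurred at 40 positions of the profile, 4 of them here. Its log2 ratio of macrophages over ESC was -0.33, which is past the 25% difference used as a call throughout. Of the 40 positions here that were at least 25% higher in ESC in 2 kb windows (20.6% over the profile), 20 carried recurring pairs, and of the 8 at least 25% higher in macrophages (3.86% over the profile), 1 did. Called windows therefore did not recur more often than the 57.4% of all windows here. Over the whole profile 281 of the 384 windows called higher in ESC carried recurring pairs, a slightly larger share than the 69.5% of all windows. Of the 72 called higher in macrophages, 28 did, a smaller share.

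Above the highest recurring value, 2.10 in ESC and 1.69 in macrophages, lay 7 windows in ESC and 6 in macrophages, against 0.911% and 0.429% of the profile. From 500 to 900 kb away 1 of 764 windows in ESC and 0 in macrophages were as high. The 8 windows concerned were the 3 pairs above and, in ESC only by this threshold, 129196157 and 129248157, 43 and 95 kb above the middle. At 129196157 contact was 2.28 in ESC and 1.5 in macrophages, and at 129248157 it was 2.53 and 1.38. The ceiling was set after the values were seen, and these counts are a description.

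**Figure D2:**
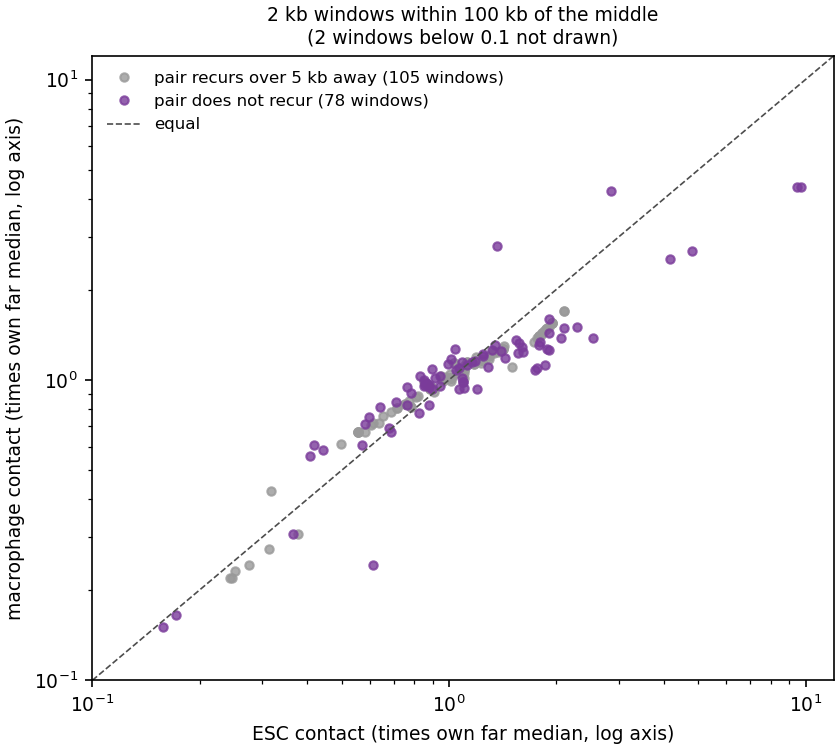
Contact of each 2 kb window in macrophages against ESC (both times the own far level, log axes), 183 windows less the 2 that lie below 0.1; grey points are value pairs that recur more than 5 kb away and purple points do not. The grey points reach 2.10 in ESC and 1.69 in macrophages, and the 3 pairs of strongest contact are purple points beyond them, except that 129150157 is beyond them in macrophages only.

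Every wider window of 10 kb at 2 times the far level or more reached one of these places, but not every window that reached one was high. Of the 10 kb windows centred within 5 kb of one of the 8, 53 had a median of 1.70 in ESC and 1.58 in macrophages. The other 146 had 1.13 and 1.19. The 53 went down to 0.381 in ESC and 0.312 in macrophages, and 1 of the other 146 in ESC and 11 in macrophages reached 1.5 times the far level, with highest values of 1.73 and 1.72. All 22 positions in ESC and all 21 in macrophages at 2 times the far level were among the 53. The 8 were chosen for their contact, so these counts are a description. In windows of 49 kb contact peaked at 1.86 in ESC and 2.18 in macrophages, and its median from 50 to 100 kb was 1.15 and 1.16.

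Taken as a whole, the sides of the middle were less alike in ESC than in macrophages in 10 kb windows. Within 100 kb the side of higher coordinates, the direction in which the gene order runs from Il1a to Il1b, held 54.8% of the contact in ESC and 51% in macrophages. The macrophage share lay on both sides of an even split, at 49.5% in 2 kb windows and 47% with distance taken from the highest 2 kb window, and that of ESC was then 55.1% and 51.4%. The shares are sums, to which empty windows add nothing. Of the 18 empty 2 kb windows here, 13 lay 17 to 29 kb above the middle. The 2 kb shares therefore do not show which side had more contact per position. At 10 to 25 kb the median in 10 kb windows was 1.14 on the lower side and 2.26 on the higher side in ESC. In macrophages it was 1.61 on the lower side and 1.85 on the higher. At 50 to 100 kb ESC had 1.04 below and 1.23 above the middle, and macrophages had 1.16 and 1.15. The asymmetry was thus larger in ESC at both of these distances, but not nearer the middle or between them. Within 10 kb the medians below and above the middle were 2.01 and 2.15 in ESC, and 2.31 and 2.52 in macrophages. At 25 to 50 kb they were 1.17 and 1.31 in ESC, and 1.19 and 1.35 in macrophages. In 20 kb windows the macrophage medians at 10 to 25 kb were 1.13 and 1.90, close to the 1.18 and 2.06 of ESC, so the difference at that distance was not seen there.

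**Figure D3:**
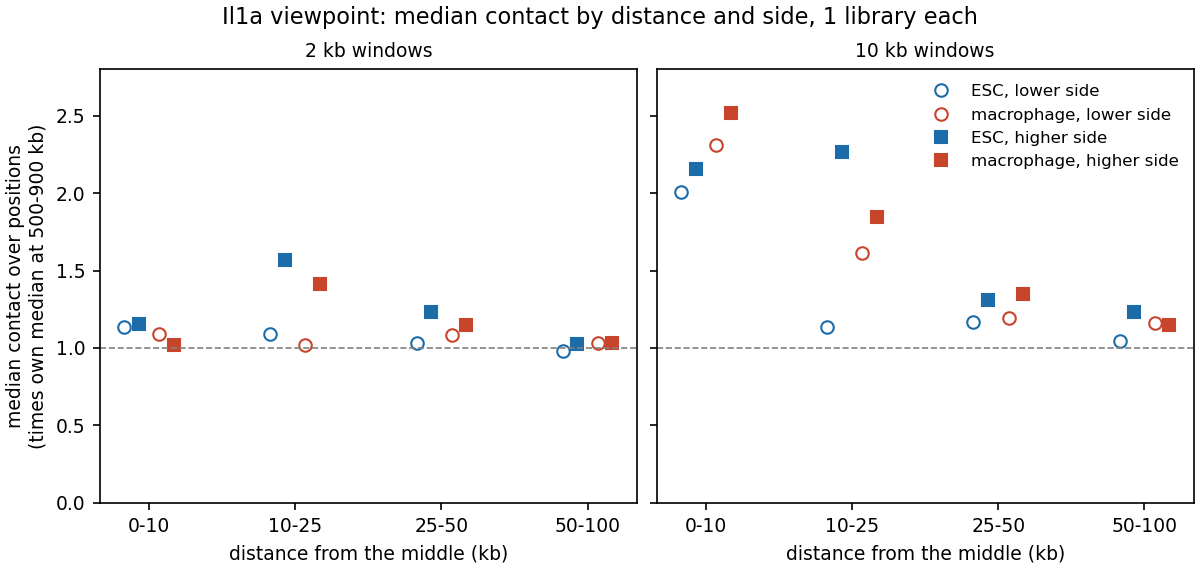
Median contact over the positions of each distance range (times the own far level) in 2 and 10 kb windows, open circles for the side below the middle and filled squares for the side above it, 1 library per cell type. At 10 to 25 kb in 10 kb windows the ESC medians are 1.14 below and 2.26 above the middle, and those of macrophages 1.61 and 1.85.

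Some of the higher side could not be read. The 2 kb windows at exactly 0, read as holding no fragment end, included all of those from 129170157 to 129182157, 17 to 29 kb above the middle, a gap of 13 positions that no other gap of the profile matched in length. In 5 kb windows 10 positions were empty in 1 stretch, and in 10 kb windows 2 were, which are the 2 empty 10 kb windows of the whole profile. Windows at 0 were at the same positions in both libraries. The pair of strong windows 15 and 16 kb above the middle borders this gap, so the 10 kb windows there take in part of an empty stretch.

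In 10 kb windows 9 local maxima at least 25% above the far level were found in ESC and 11 in macrophages. Maxima were searched within 100 kb only, so these counts have no background. Of all positions here, 41.7% in ESC and 45.7% in macrophages were at that level, against 15.7% and 8.09% of the profile. In each library 6 of the maxima lay within 1 kb of a maximum of the other library. The highest was at 129166157 in ESC, with 4.00 against 2.87 in macrophages, and 1 kb away at 129165157 in macrophages, with 3.74 against 3.75 in ESC. Next in both came 129149157, with 2.39 in ESC and 2.98 in macrophages. Farther up, 129224157, 71 kb above the middle, had 1.73 in ESC and 1.46 in macrophages, and 129185157, 32 kb above it, had 1.42 and 1.59. In ESC 129196157 had 1.58 and 129248157 had 1.5, against 1.37 and 1.13 in macrophages. In macrophages the third highest was at 129131157, 22 kb below the middle, with 1.72 against 1.10 in ESC. No position 500 to 900 kb away was as high as the first 5 maxima of ESC or the first 3 of macrophages.

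After this scaling the cell types were close over most of the neighbourhood. Across 199 positions the log2 ratio of macrophages over ESC had a median of 0.047. Its SD over positions was 0.206, against 0.109 across 802 positions 500 to 900 kb away. In 10 kb windows 16 positions were at least 25% higher in macrophages, 8.04% against 1.56% of the whole profile. Another 11 were at least 25% higher in ESC, 5.53% against 1.46%. At 500 to 900 kb the counts were 7 and 0. At 1.5-fold 2 positions were higher in macrophages and 0 in ESC, against 0.151% and 0% of the profile, and at 2-fold there were 0 either way, against 0% of the profile. In 5 kb windows 12 positions were at least 25% higher in macrophages, against 2.24% of the profile, and 18 in ESC, against 4.02%. In 20 kb windows 0 were, against 0% and 0.505%, and in 49 kb windows 0, against 0% and 0%. The Spearman coefficient between the profiles was 0.781 over 199 positions and 0.965 at 500 to 900 kb. Neighbouring windows overlap and the libraries share the layout of fragment ends, so it is a description only.

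Runs of at least 3 such positions numbered 2 in each direction, of 4 higher in macrophages and 5 higher in ESC over the whole profile. The longest was the 10 positions from 129130157 to 129139157, 23 to 14 kb below the middle, where contact averaged 1.16 in ESC and 1.63 in macrophages (1.4-fold). It was seen in some window widths only. At its centre, 129134157, contact in macrophages was 0.986 in 5 kb windows, 1.97 in 6 kb windows, 1.55 in 12 kb windows and 1.00 in 13 kb windows. ESC at these widths had 1.10, 1.21, 1.10 and 1.07. The deposited upper bound in macrophages went from 0.515 to 3.79 between 5 and 6 kb, and from 2.33 to 0.521 between 12 and 13 kb. In macrophages contact at this position thus stood above the far level in every width from 6 to 12 kb and near it at 5 and 13 kb, while ESC had 1.07 to 1.21 at the widths named. In 20 kb windows the log2 ratio of the run was -0.018, and in 49 kb windows it was 0.17.

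Of the 4 runs, the one at the upper end kept its sign in the most window widths. From 129248157 to 129252157, 95 to 99 kb above the middle, mean contact was 1.42 in ESC and 1.06 in macrophages (1.35-fold). At its centre, 129250157, ESC was the higher library in 48 of 48 window widths and at least 25% higher in 11 of them. Here the ESC values in 2, 10 and 20 kb windows were 1.77, 1.49 and 1.16, and those of macrophages 1.09, 1.06 and 1.01. Macrophages thus stayed near the far level and ESC stood above it. The end of the run is 1 kb from the border of the neighbourhood.

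The other runs lay beside the places of strong contact. From 129151157 to 129154157, which includes the middle, mean contact was 2.00 in ESC and 2.57 in macrophages (1.29-fold). At its centre, 129152157, macrophages were higher in 43 of 48 widths and at least 25% higher in 6. From 129170157 to 129173157, at the edge of the gap, it was 2.53 in ESC and 1.94 in macrophages (1.30-fold), with a log2 ratio of -0.72 in 5 kb windows and 0.21 in 49 kb windows.

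**Figure D4:**
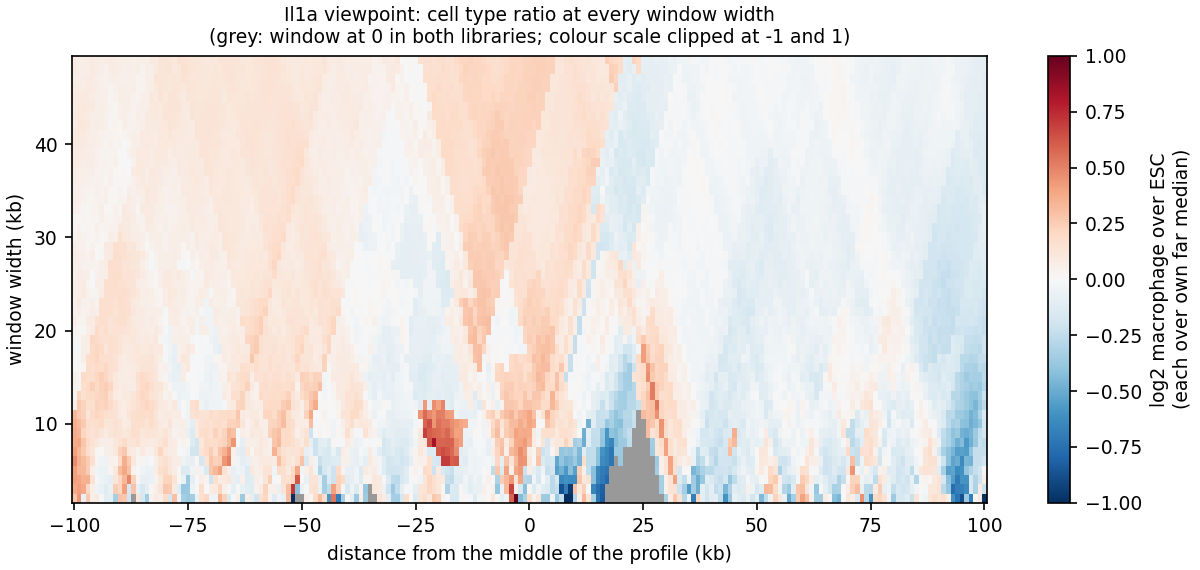
Log2 ratio of macrophages over ESC (each over its own far level) at each position and each of 48 window widths. Red is higher in macrophages, blue higher in ESC, grey marks windows at 0 in both libraries. The red patch 23 to 14 kb below the middle ends at 12 kb width at its centre, and paler red returns in wide windows, with 0.17 for that run at 49 kb. The blue column at 95 to 99 kb above the middle pales with width but keeps its sign at its centre, 129250157. In 2 kb windows 129251157 and 129252157 are slightly above 0, at 0.023 and 0.088.

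The size and sign of a ratio depended on how far the 2 scales are alike. The deposited values obeyed a geometric mean with an offset that was 0.351 times (ESC) and 2.13 times (macrophages) as large as the far level. Across 802 windows of 10 kb 500 to 900 kb away log2 contact in macrophages rose by 0.67 for each unit in ESC. Relative to that far line, 32 positions (2.06% of the profile) were at least 25% higher in macrophages and 3 (0.151%) in ESC, and the median log2 ratio became 0.11. With a slope below 1, equal contact above the far level already falls on the macrophage side of the line. In ESC 174 of the 199 positions here were above the far level. This direction is thus partly built in, and no conclusion is drawn from it. Relative to the line, the run at the edge of the gap changed sign, from -0.38 to 0.06, while the run at 95 to 99 kb kept its sign with -0.26. The line was fitted where 0 of 802 ESC windows reached 1.5 times the far level. Its use at the run at the edge of the gap, with 2.53 in ESC, is thus an extrapolation. The slope also varied with width, from 0.995 in 2 kb to 0.806 in 5 kb windows. Relative to the far line of 49 kb windows, the run at 95 to 99 kb was at 0.011. With the offset added back to every value, the counts were 6 (2.71% of the profile) and 28 (3.12%), and the run at the middle went from 0.36 to -0.21. The longest run, 23 to 14 kb below the middle, went from 0.49 to 0.10 and was no longer past a 25% difference. Adding the offset back draws values above the far level towards 1, and more so in macrophages. These shifts towards ESC were thus largely built in, and they do not decide which library was higher. The direction at the middle and at 129149157 depended on the scale and is not settled by these files. The part of the offset in it was not tested. The spreads among fragment ends inside 10 kb windows, typically 3.05-fold in ESC and 1.58-fold in macrophages on signal plus offset, overlapped at 199 of 199 positions; they are not an error between libraries.

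**Figure D5:**
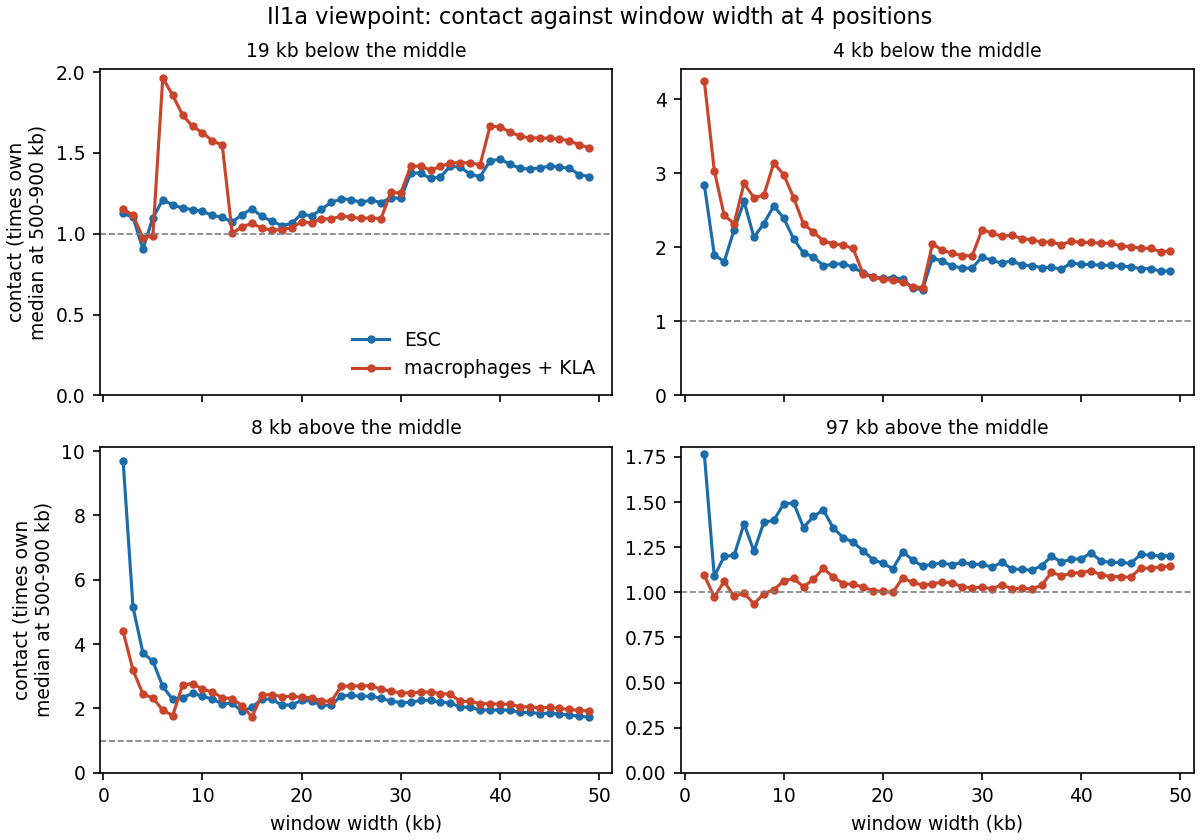
Contact (times the own far level) against window width from 2 to 49 kb at 4 positions, ESC in blue and macrophages in red. At 19 kb below the middle macrophages rise to 1.97 at 6 kb and fall back to 1.00 at 13 kb; at 8 kb above the middle ESC falls from 9.70 at 2 kb to below macrophages in 41 of 48 widths; at 97 kb above the middle ESC is higher at every width.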

How the data were processed

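Each of the 2 Il1a libraries had 1 deposited profile of 2001 positions, 1000 bp apart, with a contact signal and a lower and an upper bound in 48 window widths from 2 to 49 kb. CASAVA 1.4, Bowtie2 2.0.1 and build mm9 are named per the submitters' processing notes. Their roles and the program that smoothed the profiles were not given in the sources used here. The authors' signal is relative, since the highest 2 kb window is exactly 1 in each deposited library, and the bounds, the other values deposited by the authors, describe a spread inside a window. Windows at 0 were left out, each library was divided by its own median 500 to 900 kb from the middle, and log2 ratios of macrophages over ESC were taken. A call was a 25% difference, without p-values, because each group had 1 library. The scaling, calls, runs, far line and maxima were tested on simulated profiles that had no offset and no empty windows. Recurring pairs, the offset and steps between widths were not tested in that way.

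The named places were the middle, the highest 2 kb windows, the first 5 local maxima of each library (not exceeded within 5 kb, 10 kb apart) and up to 5 runs of at least 3 positions. The neighbourhood, thresholds and rules were chosen with earlier results of these data known. Recurring value pairs, the windows above them, the far line and 2 kb distance medians were added after the data were seen. Promoters came from RefSeq (GRCm38.p6), matched by symbol for 2 of 2 genes. Python 3.11.15, NumPy 2.4.6, SciPy 1.17.1, pandas 2.3.3 and Matplotlib 3.10.9 were used.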

Additional observations from a re-analysis of the deposited data

How the results depend on the processing

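With 1 library a group and no read counts, the alternatives bear on the processing alone. A value counted as moved when it changed by over 25%, or a count by over 1.5 times. Of the alternatives for the values by distance, side shares, counts and correlation, 99 stayed and 31 moved, and of the 28 for the runs 14 kept the 25% difference, 9 kept only the sign and 5 reversed. The cause was not tested unless the threshold or scale itself sets the count. No paired analysis was possible because each group had 1 library.

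Contact within 10 kb went from 2.03 to 1.47 in 5 kb and 1.10 in 2 kb windows in ESC, and from 2.43 to 1.73 in 5 kb, 1.95 in 49 kb and 1.02 in 2 kb windows in macrophages. At 10 to 25 kb the ESC median of 1.22 became 1.55 in 20 kb and 1.59 in 49 kb windows and 1.63 as a mean; the macrophage median of 1.63 became 1.09 in 5 kb and 1.08 in 2 kb windows. The local maxima in ESC numbered 14 in 5 kb and 3 in 49 kb windows and 4 at 1.5 times the far level; in macrophages 6 in 49 kb windows and 4 at 1.5 times. As deposited, the median log2 ratio was 1.18, with 199 positions at least 25% higher in macrophages and 0 in ESC. The count for macrophages, 16, became 0 in 20 kb and 0 in 49 kb windows, 6 on signal plus offset, 32 relative to the far line, 2 at 1.5-fold and 0 at 2-fold. That for ESC, 11, became 18 in 5 kb, 0 in 20 kb and 0 in 49 kb windows, 28 on signal plus offset, 3 relative to the far line, and 0 at 1.5-fold and at 2-fold. The run from 129130157 reversed from 0.49 to -0.059 in 5 kb and -0.018 in 20 kb windows, and was 0.10 on signal plus offset and 0.17 in 49 kb windows. The run from 129151157 reversed to -0.21 on signal plus offset and was 0.048 in 5 kb windows. The run from 129248157 went from -0.43 to -0.074 in 49 kb windows. The run from 129170157 was -0.013 in 20 kb windows and reversed to 0.21 in 49 kb windows and to 0.061 relative to the far line. The far line, the recurring pairs, the 2 kb medians and the offset at single 2 kb windows were chosen after seeing the data.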

Other observations

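Single 2 kb windows gave the widest ratios of the neighbourhood, away from the strongest places too. At 129253157, the upper border, contact was 0.614 in ESC and 0.242 in macrophages, a log2 ratio of -1.34, and in 10 kb windows the ratio there was -0.19. At 129101157, 52 kb below the middle, it was 0.0198 and 0.0069, a log2 ratio of -1.52, on a value pair that recurred elsewhere; in 10 kb windows the ratio was 0.18. At 129110157, 43 kb below the middle, it was 0.420 in ESC and 0.606 in macrophages, a log2 ratio of 0.53, against -0.033 in 10 kb windows. None of these 3 kept its size in wider windows.

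Between 5 and 20 kb, a step of at least 1.5-fold from 1 window width to the next occurred at 28 positions in ESC (13.9%) and at 44 in macrophages (21.9%), against 1.75% and 0.623% of positions 500 to 900 kb away. At the Tnfaip3 viewpoint, 70.9% of the 182 windows of 2 kb with a value within 100 kb of the middle carried value pairs that recurred more than 5 kb away, against 67.2% of that whole profile.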
